A study of Mus musculus with 3 samples.

Results

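The chromatin domains around Pitx1 and the limb T-box genes Tbx5, Tbx3, Tbx4 and Tbx2 were examined in the developing mouse limb. For each of the 5 genes, and for the Pen enhancer region of Pitx1, a point in the mm9 genome was set against the authors' domain calls. The domain holding the point was taken with 1 domain on each side. This gave 12 of the 4124 domains called, in 3 runs of 4 on chromosomes 13, 5 and 11. Of the 12, 6 hold or touch a point and 6 flank those. The gene points are given to within 5 kb and the Pen point to within 50 kb. They come from the choice of loci and not from the domain table, which names no gene.

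The domains come from Hi-C, in which DNA segments that lie close together in the nucleus are joined and sequenced. The tissue was limb buds of wild-type embryos at E11.5, when the buds are growing out. All 3 libraries form 1 group, made from 1 pool of fore- and hindlimb buds, of 8 embryos by the protocol text and 10 by the design text. The labels also give every library a stem cell line, G4 ESC, as its cell type beside the limb bud tissue, and without expression values the tissue could not be checked. Forelimb and hindlimb contacts were not separated, so each value below describes both limbs together. The table holds 1 value per domain for all libraries, so no replicate error can be attached and the depth is unknown.

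Pitx1 is a homeodomain transcription factor that gives the hindlimb its identity and acts upstream of Tbx4. Tbx5 starts the outgrowth of the forelimb bud and Tbx4 supports that of the hindlimb, whereas Tbx2 and Tbx3 are repressors active along the margins of both limb buds. The T-box genes lie in tandem pairs that descend from 1 ancestral pair, with a gene of the Tbx2 and Tbx3 type beside a gene of the Tbx4 and Tbx5 type. Pen is a distant Pitx1 enhancer that is active in both limbs, while Pitx1 itself is a hindlimb gene. The study searched for architectural stripes, which are lines of contact that run from 1 anchor across a domain and are usually attributed to cohesin extruding chromatin from a fixed point.

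None of the 3 pairs of points lay inside 1 domain. The Tbx3 point at 120.12 Mb of chromosome 5 fell in a domain from 119225001 to 120175000, and the Tbx5 point at 120.28 Mb fell in the next, from 120175001 to 120575000. The domains touch, with their common edge 55 kb above Tbx3 and 105 kb below Tbx5 in coordinate. The Tbx2 point at 85.65 Mb of chromosome 11 fell on the edge shared by the domains from 85175001 to 85650000 and from 85650001 to 86000000. The Tbx4 point, at 85.70 Mb, lay 50 kb inside the second. The Pitx1 point at 55.93 Mb of chromosome 13 fell in a domain from 55800001 to 56200000. The Pen point at 56.3 Mb fell in a separate domain, from 56250001 to 56550000, beyond a gap of 50 kb that belongs to no domain. The rounding of the Pen point reaches down to the edge of that domain, 50 kb away.

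**Figure D1:**
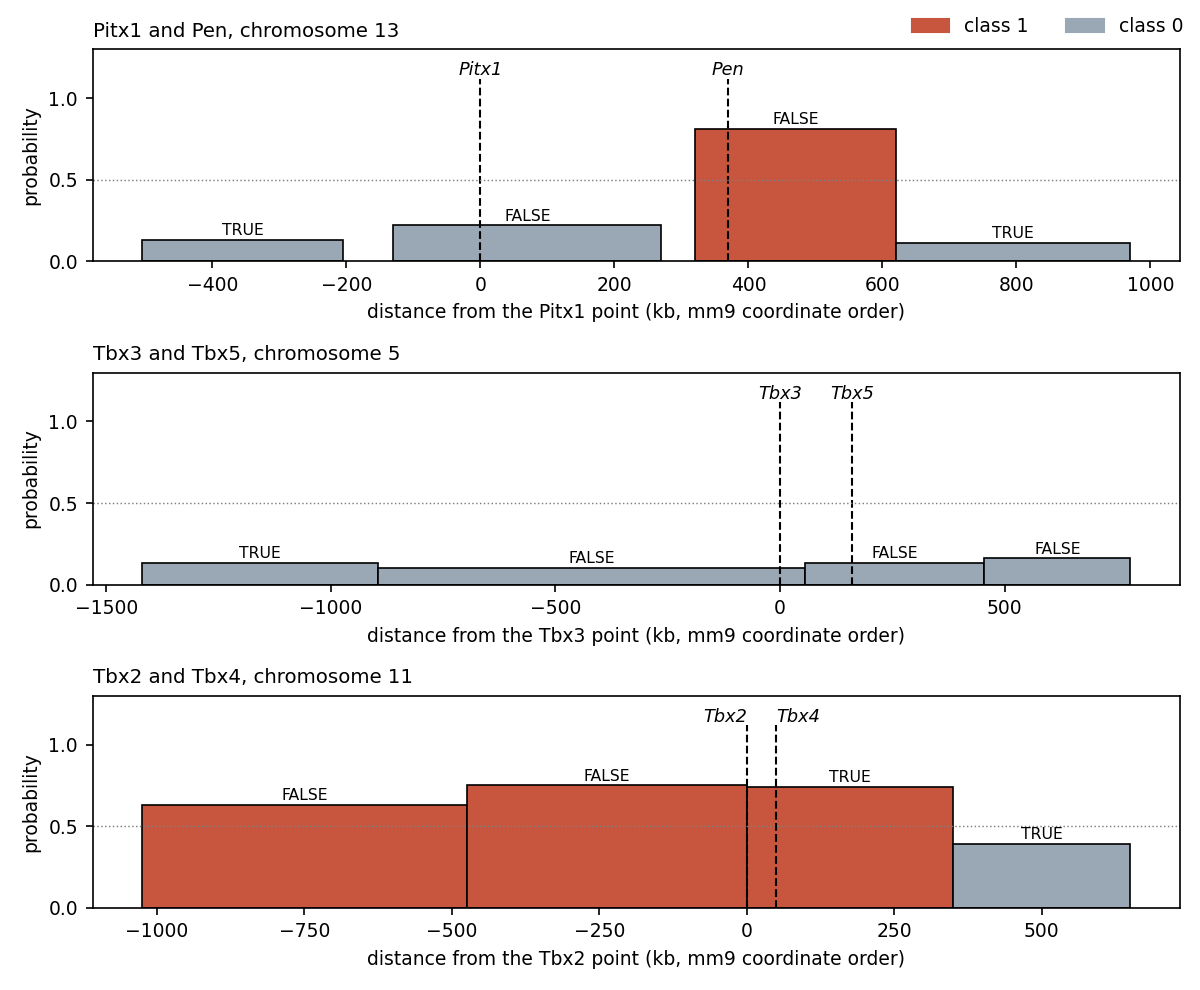
Each panel shows the 4 domains of 1 locus as bars, with distance in kb from a gene point on the horizontal axis and the random forest probability of the domain on the vertical axis. Red bars are class 1, grey bars class 0, the words TRUE and FALSE give the direction, dashed lines mark the points and the dotted line marks 0.5. Pen is in a class 1 domain while Pitx1 is not, the Tbx3 and Tbx5 run is all class 0, and the Tbx2 point lies where 2 class 1 domains meet.

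The Tbx3 and Tbx5 points thus had a domain edge between them, with Tbx5 in the domain of higher coordinate. In the other tandem pair the edge fell on the Tbx2 point, with Tbx4 in the domain of higher coordinate. For Tbx2 the side cannot be settled, nor whether an edge separates it from Tbx4. Edges lie on a grid of 25 kb, the rounding of the point reaches into both domains, and Tbx2 itself is 9.33 kb long in the RefSeq annotation of GRCm38.p6. With all points moved 25 kb up in coordinate, Tbx2 and Tbx4 shared a domain, and moved 25 kb down they did not. In the table, 1.86% of the sequence in domains lies within 5 kb of an edge. The other points were less close: 18.6% lies as near to an edge as the Pen and Tbx4 points. The share was 20.4% for Tbx3, 38.2% for Tbx5 and 46.2% for Pitx1. In the gene order of the same annotation, Tbx3 and Tbx5 are next to each other between Med13l and Rbm19. Tbx2 and Tbx4 are likewise next to each other between Bcas3 and Brip1, and Pitx1 lies between Catsper3 and Macroh2a1.

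How often points this far apart share a domain was counted at 5 kb steps over all 19 chromosomes of the table, as a description of the table. At the 160 kb between Tbx3 and Tbx5, 64.7% of positions had both points in 1 domain, 22.2% had them in different domains and 13.2% had at least 1 in a gap. The Tbx3 and Tbx5 arrangement is thus the less common one at that distance. At the 50 kb between Tbx2 and Tbx4, 83.1% of positions shared a domain and 6.45% lay in different domains, with the rest touching a gap. The count has no separate state for a point on an edge and gives it to the domain above. By that rule Tbx2 and Tbx4 would share a domain, so the pair was not placed in either share. At the 370 kb between Pitx1 and Pen, 36.4% shared a domain and 49.2% lay in different domains. Separate domains for Pitx1 and Pen are thus the more common arrangement at their distance.

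**Figure D2:**
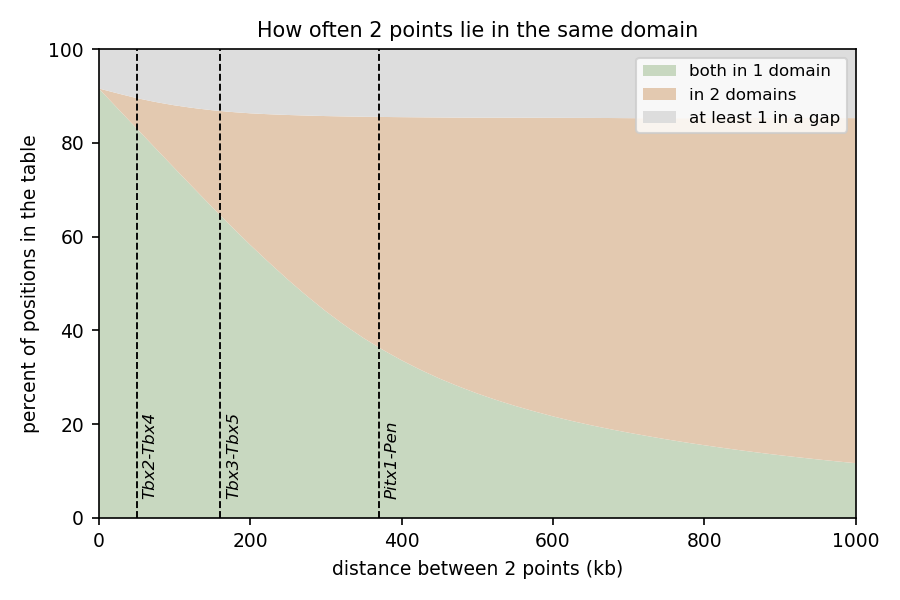
The distance between a pair of points is on the horizontal axis in kb, and the percent of all positions in the table is stacked on the vertical axis by whether both points lie in 1 domain, in 2 domains, or at least 1 in a gap. Dashed lines mark the 3 pairs of loci, at which 83.1%, 64.7% and 36.4% of positions share a domain.

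Around Pitx1, the domain that holds the Pen point was in the stripe class and the domain that holds the gene was not. With the tuned edges of the table the Pen point lay in neither, 10 kb outside its domain. Each domain carries a random forest probability, and class 1, with a probability of 0.5 or more, was taken as the stripe class. It holds 35.1% of all domains (95% Wilson interval 33.7 to 36.6%). That interval treats the domains as independent draws and holds no replicate error. The Pitx1 domain spanned 400 kb and was class 0, with a probability of 0.22. Its imbalance score, for which the labels and headers state no formula, was 0.104, against a median of 0.317 over all domains. The Pen domain spanned 300 kb and was class 1, with a probability of 0.81 and an imbalance of 0.559. By imbalance the Pitx1 domain stood at the 18.0th percentile of the table and the Pen domain at the 73.0th. The difference was larger still in the imbalance difference score, at 0.0628 for Pitx1 and 0.467 for Pen, which are the 25.1st and 93.0th percentiles. Both had direction FALSE. The labels and headers do not say which side TRUE or FALSE stands for.

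The Pitx1 domain had a gap on both sides, of 75 kb and 50 kb, an arrangement found in 7.57% of domains. The Pitx1 point lay 130 kb from the nearer edge, about 32.5% of the way through. The domain before it, from 55425001 to 55725000, was in class 0 with a probability of 0.13, an imbalance of 0.373 and direction TRUE. It too had a gap on both sides. The domain after Pen, from 56550001 to 56900000, touched the Pen domain and was in class 0 with direction TRUE. Its imbalance of 0.434 lay just above 0.429, the lowest value of any class 1 domain other than a group with imbalances below 0.2. Its probability was nevertheless 0.11. Among the 353 domains with an imbalance within 10% of its own, 27 were in class 1.

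Neither Tbx3 nor Tbx5 was in a class 1 domain, and the whole run of 4 was class 0. The Tbx3 domain was 950 kb long, the longest of the 12 and at the 90.1st percentile of length. Tbx3 lay 94.2% of the way through it, with 895 kb of the domain at lower coordinates. It had a probability of 0.10, an imbalance of 0.109 (19.0th percentile) and an imbalance difference of 0.11 (41.6th percentile). The Tbx5 domain was 400 kb long, with a probability of 0.13, an imbalance of 0.406 (60.1st percentile) and an imbalance difference of 0.324 (83.2nd percentile). Its imbalance was thus higher than that of the Tbx3 domain, with nearly the same probability. Of the 366 domains with an imbalance within 10% of that of the Tbx5 domain, 4 were in class 1. Both domains had direction FALSE.

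The flanking domains of this run were from 118700001 to 119225000, with direction TRUE, an imbalance of 0.372 and a probability of 0.13, and from 120575001 to 120900000, with direction FALSE, 0.343 and 0.16. The 4 domains touch and form an unbroken stretch of 2200 kb, bounded by gaps of 150 kb and 300 kb.

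Around Tbx2 and Tbx4, both domains that meet at the Tbx2 point were in class 1. The domain below it was 475 kb long with direction FALSE, a probability of 0.75 and an imbalance of 0.698 (82.2nd percentile). The domain above it, which holds Tbx4, was 350 kb long with direction TRUE, a probability of 0.74 and an imbalance of 0.771 (85.5th percentile). Their imbalance difference scores were 0.553 and 0.64, at the 96.5th and 98.4th percentiles. Only 67 domains of the table scored above the Tbx4 domain. The run thus passes from FALSE to TRUE at the Tbx2 point, and the 2 domains have nearly equal probabilities.

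The domain before them, from 84625001 to 85175000, was also in class 1, with direction FALSE, a probability of 0.63 and an imbalance of 0.625. Its imbalance difference was only 0.138, near the table's median of 0.137. The domain after Tbx4, from 86000001 to 86300000, was in class 0 with direction TRUE and an imbalance of 0.0237, at the 4.60th percentile. The 4 domains lie at the end of a stretch of 10 touching domains that is 3325 kb long.

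The class 1 share of the 12 domains was close to that of the table. In all, 4 were in class 1, which is 33.3% against the 35.1% of all domains, with 3 among the 6 that hold or touch a point and 1 among the 6 flanking ones. All but 2 of these domains touch a neighbour and the loci were chosen, so the counts are a description. Direction was FALSE in 7 and TRUE in 5, with FALSE in 50.8% of the table. Lengths ran from 300 to 950 kb, with a median of 375 kb against 400 kb in the table. The probabilities of the 8 class 0 domains ran from 0.10 to 0.39 and those of the 4 in class 1 from 0.63 to 0.81, so none lay near the threshold. None of the 12 reached 0.9, which 16.2% of all domains did.

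The 6 domains that hold or touch a point shared a high cosine score. Its formula was not stated in the labels or headers, so only ranks and values within the table are read from it. The cosine score was 0.793 in the Pitx1 domain and 0.79 in the Pen domain. It was 0.898 in the Tbx3 domain and 0.845 in the Tbx5 domain. In the domains below and above the Tbx2 point it was 0.806 and 0.877. All 6 lay above the upper quartile of the table, 0.776, at percentiles from 78.2 to 96.8 with a median of 85.6. The Tbx3 domain ranked 132 from the top among 4122 domains with a score.

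Among domains within 25% of their own length the 6 also stood high by cosine score, at percentiles from 76.7 to 99.0. The 6 flanking domains spread more widely, from 0.429 at the start of the Tbx2 and Tbx4 run to 0.876 before the Tbx3 domain, and 3 of them lay above the table's median of 0.652. The domain just before that of Pitx1, at 0.636, lay below it, and the domain after Pen had 0.843. Among domains outside the runs, all 5 within 2 Mb of Pitx1 lay above that median. Their own median, 0.807, was above the values of the Pitx1 and Pen domains, so a high score there was not particular to these 2. Such domains lay above the table's median in 1 of 4 cases within 2 Mb of Tbx3 and in 3 of 7 within 2 Mb of Tbx2. Their own medians were 0.503 and 0.649. Imbalance showed no such common level among the 6, with values from 0.104 to 0.771 and percentiles from 18.0 to 85.5. The imbalance difference score also spread widely, at percentiles from 25.1 to 98.4. Its median percentile, 88.1, was nevertheless above the 85.6 of the cosine score.

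**Figure D3:**
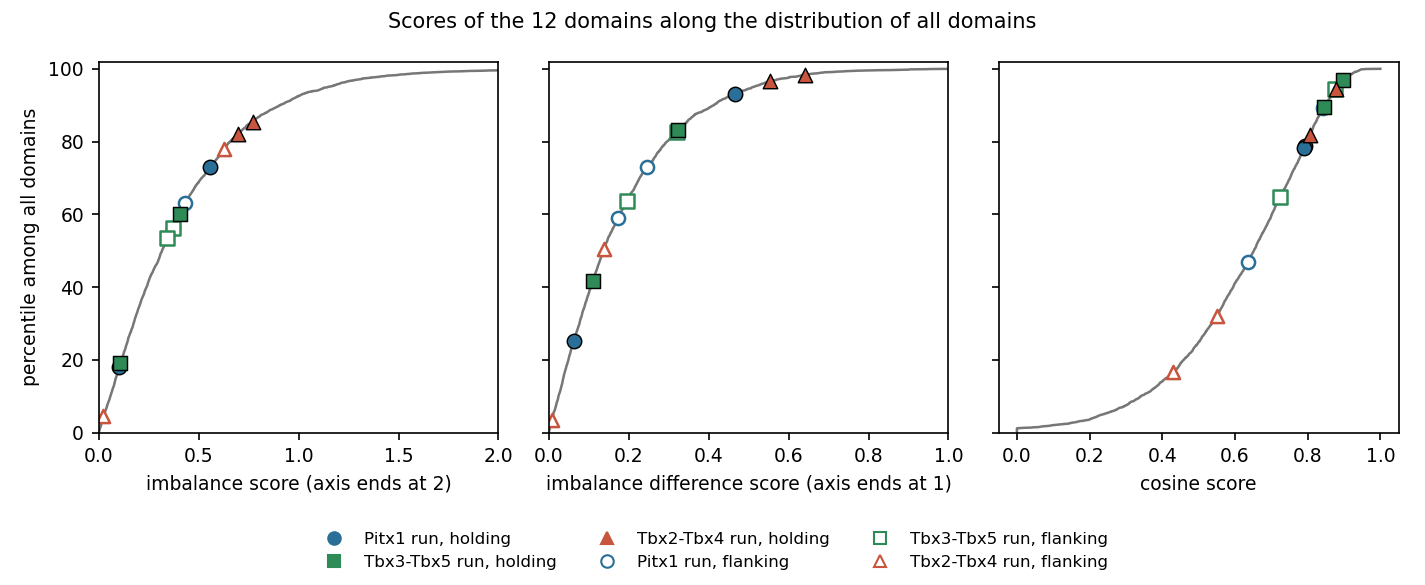
The grey curve in each panel gives the percentile of every domain of the table by imbalance, imbalance difference and cosine score, and the symbols mark the 12 domains, filled where the domain holds or touches a point and open where it flanks one. The filled symbols spread over the imbalance curve from the 18.0th to the 85.5th percentile but all stand at or above the 78.2nd percentile of the cosine score.

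The class of a domain with a low imbalance went with its cosine score. Of the 149 domains with an imbalance within 10% of that of the Pitx1 domain, 38.3% were in class 1. The Pitx1 domain, with a cosine score just under 0.8, was not among these. The same domains were divided at a cosine of 0.8, a value chosen after the scores had been seen. Of the 101 below it 57 were in class 1, with a median probability of 0.51. Of the 48 at or above it 0 were, with a median of 0.12. The Pitx1 domain fell on the lower side of this limit, yet was class 0 with a probability of 0.22. The domains within 10% of the imbalance of the Tbx3 domain overlap with those around the Pitx1 domain, so the counts are not separate. Around the imbalance of the Tbx3 domain 43 of 107 domains below a cosine of 0.8 were in class 1, with a median probability of 0.46. At or above it 0 of 48 were, with a median of 0.10, the value of the Tbx3 domain itself. The class could have been built from these scores, so the counts describe the classification and were not tested.

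**Figure D4:**
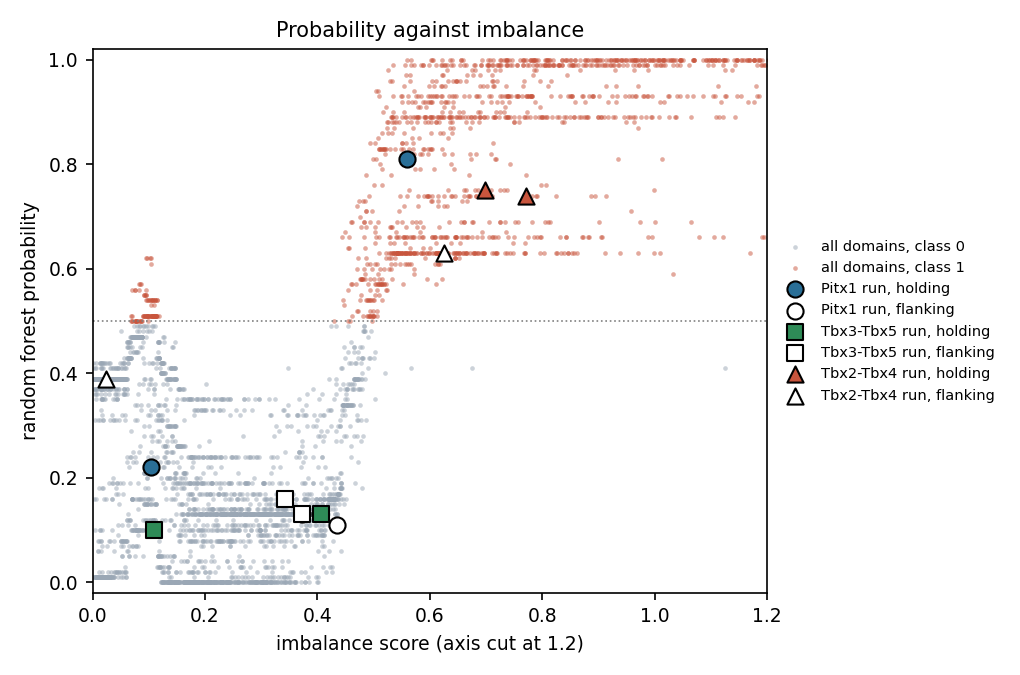
Each small point is a domain, with its imbalance score on the horizontal axis, cut on the right, and its random forest probability on the vertical axis. Large symbols are the 12 domains. The Pitx1 and Tbx3 domains lie at imbalances of 0.104 and 0.109, below a cluster of class 1 domains, and the 4 class 1 domains lie on the right at probabilities from 0.63 to 0.81.

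Within class 1 the highest probabilities lay below a cosine of 0.8, the limit chosen after the scores had been seen. In the table, 797 domains had a cosine of 0.8 or more, and 89 of these (11.2%) were in class 1, against 1359 of 3325 (40.9%) below it. The highest probability at a cosine of 0.8 or more was 0.75. The domain below the Tbx2 point had that value and the Tbx4 domain, at 0.74, had the next, and 44 of the 89 reached 0.74 or more. Of the class 1 domains with a lower cosine, 49.2% had a probability of 0.9 or more. The Pen domain, at 0.79, lay just under this limit with its probability of 0.81. No domain with a probability of 0.8 or more had a cosine above 0.794. The flanking class 1 domain of the Tbx2 and Tbx4 run, from 84625001 to 85175000, had a low cosine, 0.429, and the lowest probability of the 4. Its imbalance difference of 0.138 was below 0.227, the lowest value among domains with a probability of 0.8 or more. The probability, too, could have been built from these scores, so these values describe the classification and were not tested.

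**Figure D5:**
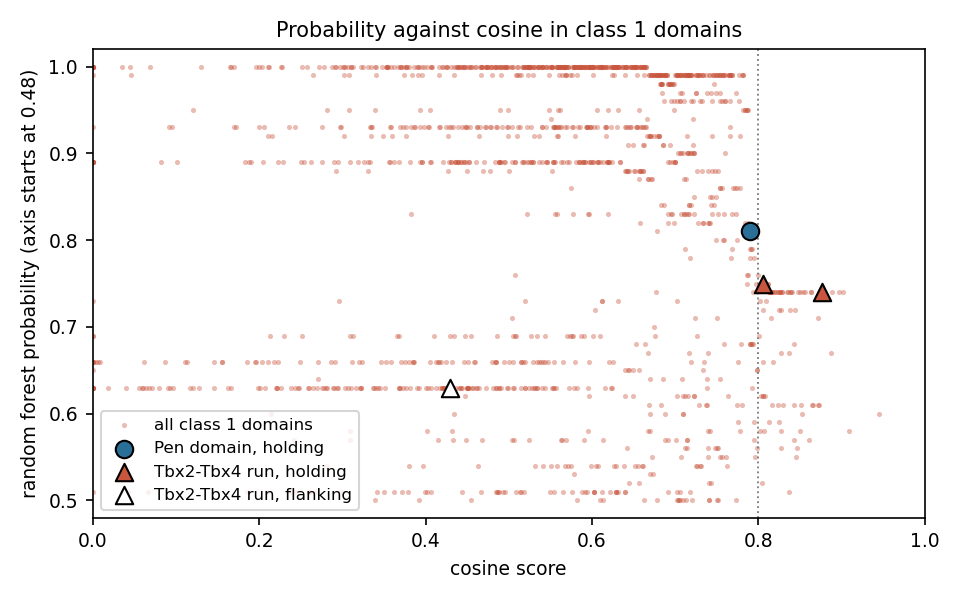
Small points are all class 1 domains, with the cosine score on the horizontal axis and the random forest probability on the vertical axis, which starts at 0.48. Large symbols are the 4 class 1 domains of the loci. To the right of the dotted line at 0.8 no domain exceeds 0.75, and the domains that meet at the Tbx2 point lie at 0.75 and 0.74.

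The table also gives a second, tuned pair of edges for each domain, on a grid of 10 kb. Tuning moved the starts of the 12 domains inward by 0 to 60 kb and the ends by 10 to 65 kb, with medians of 30 kb and 32.5 kb against 30 kb for both in the table. The Pitx1 domain was the one whose start did not move. Between the tuned edges of the Tbx3 and Tbx5 domains lay 100 kb, against a median of 60 kb over all touching pairs (87.7th percentile). At the Tbx2 edge this distance was 30 kb (18.5th percentile), and the Tbx2 point lay within it, in neither domain. Between the Pitx1 and Pen domains it was 140 kb, and the Pen point lay in it, 10 kb before the tuned start of its domain. With tuned edges the Tbx3 point was still inside its domain, 10 kb from the end.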

How the data were processed

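Hi-C of 3 wild-type limb bud libraries was analysed through 1 deposited domain table. Reads were handled with Juicer and BWA on mm9, per the submitters' processing notes, and their versions were not given in the sources used here. TopDom called the domains, as the deposited table's name records. The name also gives a quantile threshold of 0.98 and a random forest threshold of 0.5. It does not state at which step the quantile was used. Imbalance, imbalance difference and cosine are scores per domain, per the file headers. The probability is a fraction in the deposited table. Whether libraries were pooled before calling is not given there. Depth per sample is unknown.

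Points were located with Python 3.11.15 and pandas; starts count from 1. Percentiles are midranks over domains with a finite score (2 lack imbalance, cosine or probability). Functions were tested on simulated data. No significance test was made, since the table holds no replicates. The members, lists and descriptions were chosen with earlier results of these data known. The genes named are the 5 members and their protein-coding neighbours. Alternatives moved the points, edges, threshold and reference domains. The gene annotation at hand belongs to another build and gave only gene names, their order and the length of Tbx2; no sequence is shown.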

Additional observations from a re-analysis of the deposited data

How the results depend on the processing

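The placement of the points depended on their position to within 50 kb. Of the 5 points inside a domain, all 5 kept it when moved by 25 kb either way or 50 kb up in coordinate. When moved 50 kb down 3 kept it (Pen and Tbx4 reached an edge), when moved 100 kb down 3 did, and when moved 100 kb up 4 did, Tbx3 passing into the Tbx5 domain. With tuned edges 4 did, without Pen. The number of T-box pairs inside 1 domain was 0, also when both points moved 25 or 50 kb down and with tuned edges. It was 1 (Tbx2 and Tbx4) when they moved 25 kb up, 50 kb up or 100 kb down, and 2 when they moved 100 kb up. With tuned edges the distance to the nearest edge was 10 kb for Pen, Tbx3 and Tbx2, 50 kb for Tbx5, 30 kb for Tbx4 and still 130 kb for Pitx1. At a probability of 0.9 or more the class 1 count among the 6 domains fell from 3 to 0; counting low-imbalance class 1 domains as class 0 left it at 3. The median percentile of the 6 domains by imbalance, 66.6 in the table, was 64.5 among domains of like length, 69.8 within chromosomes, 37.9 within classes and 68.9 when weighted by length. By imbalance difference it was 88.1, with 85.2 within classes and 86.5 weighted by length. By cosine it was 85.6, with 83.6 within chromosomes, 93.5 within classes and 88.6 weighted. By probability it was 59.7, with 57.8 among like lengths and 38.3 within classes. By length it was 49.9, with 26.0 weighted. Other alternatives left these medians inside a 95% Wilson interval, which served only as a yardstick. It counts all domains of the table and does not measure the spread of a median over 6 chosen domains. No paired analysis was possible because all libraries share 1 group and 1 column of values, and leaving out a library was not possible either. Without values per library, no difference between neighbouring domains can be set against replicate error.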

Other observations

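The 2 domains that meet at the Tbx2 point are described further here, chosen after their values had been seen. Of the 3084 pairs of touching domains in the table, 380 had both members in class 1, and 94 of these had direction FALSE followed by TRUE in coordinate order. Within each pair the lower of the imbalance difference scores was taken. It was 0.553 at the Tbx2 point, against a median of 0.237 over the 94 pairs, and no other of the 94 reached it. Over all 380 class 1 pairs, 4 had a value as high, the Tbx2 pair included.

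Outside the 4 domains of each run, 2 of 5 domains within 2 Mb of Pitx1 were in class 1, 2 of 4 within 2 Mb of Tbx3 and 3 of 7 within 2 Mb of Tbx2. The share was 35.1% over all domains, and 28.3, 35.1 and 35.9% on chromosomes 13, 5 and 11. Near Tbx3, whose own run was all class 0, the class 1 domain from 117950001 to 118550000 had an imbalance difference of 0.858, above every value in the 12 domains.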
